A study of Mus musculus with 39 samples.

Results

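The genes described here are the nuclear-encoded subunits of oxidative phosphorylation, the respiratory chain and ATP synthase of mitochondria. They were chosen by symbol alone, as all transcripts in the counts table named Nduf followed by a, b, c, s or v and a digit, Cox4 to Cox8 followed by a, b or c, the listed Uqcr symbols, Atp5 with any ending, or Cyc1, Cycs and Sdha to Sdhd. This gave 85 of 20333 transcripts, each standing for 1 gene, with 38 in complex I, 4 in complex II, 9 in complex III, 16 in complex IV, 17 in complex V and cytochrome c itself. The symbols do not reach Cox4i1, Cox4i2, Ndufab1 and Atpif1, which were not counted among the members. Some members are not plain structural subunits. Cox7a2l is a factor that joins complexes III and IV into supercomplexes, Ndufa4l2 is a hypoxia-related paralog of Ndufa4, and Ndufb1-ps carries the symbol of a pseudogene. Ndufa4 is kept under complex I by its name, although structural work places its protein with complex IV.

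The samples were neuroblastoma tumors of TH-MYCN mice, in which the tyrosine hydroxylase promoter drives human MYCN in the sympathetic lineage. All 4 groups carried this transgene and differed in diet and drug. Control mice (named C and their number) had a defined control diet, D mice the same diet with difluoromethylornithine (DFMO), P mice a diet without proline and arginine, and PD mice, called the combination, that diet with DFMO. DFMO inhibits ornithine decarboxylase, the first enzyme of polyamine synthesis, and proline and arginine are both sources of its substrate ornithine. Ribosome footprints, the mRNA pieces shielded by translating ribosomes, were sequenced from 5 mice per group, and total RNA from the same extracts of 19 of these 20 mice. RNA of C5840 was not analysed here. Values of single mice are given in the order C5696, C5778, C5781, C5812 and C5840 for controls, D5747, D5802, D5806, D5823 and D135 for DFMO, P5702, P5705, P5784, P5785 and P5828 for the diet, and PD5732, PD5736, PD5746, PD5805 and PD5825 for the combination. Each mouse gave 1 tumor sample, and the labels give no age or sex. The samples are pieces of whole tumors, in which fewer cells of a type and less RNA per cell cannot be told apart.

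In the respiratory chain, complex I takes electrons from NADH and complex II takes them from succinate, complex III passes them to the mobile carrier cytochrome c, and complex IV hands them to oxygen. Complexes I, III and IV pump protons, and complex V uses the returning protons to make ATP. Apart from complex II, each complex joins core subunits encoded by mitochondrial DNA to nuclear-encoded core and accessory subunits, which are translated in the cytosol and imported. Most of the accessory subunits are small proteins with short mRNAs. MYCN, the transcription factor that drives these tumors, is known to raise the expression of many genes of mitochondrial biogenesis.

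The footprint libraries held 2137838 to 12409644 counts and the RNA libraries 10005384 to 51538191. Members took 1.38 to 2.29% of footprint counts. RNA of C5696, C5778, C5781 and P5828 was of low complexity, with 8806 to 13387 transcripts detected against 14977 to 16317 in the other 15 libraries, and with 39.8 to 51.5% of counts on ribosomal protein mRNA against 21.9 to 33.0%. Members took 2.36 to 3.32% of the counts of these 4 RNA libraries and 2.63 to 4.37% of the others. The 4 libraries thus had no excess of members per count. The scaling used here (TMM) gave them factors of 0.411 to 0.729 against 0.990 to 1.45, and so raised their CPM (counts scaled by library size) relative to the other libraries. The neuroblast markers, among them Phox2a, Th, Dbh, Hand2, Gata3, Isl1 and Mycn, were detected in every group, with summed footprint CPM of 1091 to 1644 in controls and 1471 to 1912 in the combination.

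Coding sequences of 3 members and 1 promoter are shown as examples of the codons and promoter letters described below. Cox7b, a small subunit of complex IV, had the largest footprint rise of the combination among the 81 members tested in footprints. It also had the largest share of codons ending in A among the 80 of them with a coding sequence, with 26 of 80 codons or 32.5%. Atp5md, a small membrane subunit of ATP synthase, had the largest rise in complex V, with 16 of 58 such codons or 27.6%. Cox8a, another small subunit of complex IV, had the lowest share, with 2 of 69 or 2.90%. Codons ending in A are in capitals, the stop codon is left out, and the sequences are those of GENCODE M21 transcripts on GRCm38, at chrX:106015700-106022450 on the plus strand for Cox7b, chr19:47083468-47090643 on the minus strand for Atp5md and chr19:7215153-7217616 on the minus strand for Cox8a. The promoter is the 250 bases before the start of Ndufb4 in RefSeq (GRCm38.p6, chr16:37654369-37654618, minus strand), a complex I subunit whose footprints rose the most of that complex. Its 3 matches to the letters GCGCA, then any base, then GCGC, known from binding of the factor NRF1, are in capitals. The counted transcript of Ndufb4 starts inside this window, at chr16:37654453, so not all 3 matches lie before that start.
Cox7b: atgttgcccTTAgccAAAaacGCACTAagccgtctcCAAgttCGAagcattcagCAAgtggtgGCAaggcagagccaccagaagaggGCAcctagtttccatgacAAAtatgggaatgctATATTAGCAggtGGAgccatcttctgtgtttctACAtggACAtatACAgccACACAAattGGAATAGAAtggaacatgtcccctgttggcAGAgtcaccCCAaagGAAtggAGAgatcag
Atp5md: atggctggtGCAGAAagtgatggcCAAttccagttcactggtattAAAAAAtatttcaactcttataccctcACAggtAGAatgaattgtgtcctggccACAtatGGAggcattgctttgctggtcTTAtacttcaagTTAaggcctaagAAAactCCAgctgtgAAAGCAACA
Cox8a: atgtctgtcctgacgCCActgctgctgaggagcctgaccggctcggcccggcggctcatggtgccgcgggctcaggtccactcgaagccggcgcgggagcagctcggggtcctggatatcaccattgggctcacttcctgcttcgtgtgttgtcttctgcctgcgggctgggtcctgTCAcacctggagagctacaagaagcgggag
Ndufb4 promoter: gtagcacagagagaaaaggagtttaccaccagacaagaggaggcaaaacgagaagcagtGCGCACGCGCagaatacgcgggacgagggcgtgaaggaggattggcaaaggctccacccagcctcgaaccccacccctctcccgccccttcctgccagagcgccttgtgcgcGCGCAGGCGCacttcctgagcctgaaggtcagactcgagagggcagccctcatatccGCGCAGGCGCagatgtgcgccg

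Per length, ATP synthase and complex IV genes led the footprints of control tumors. In deposited RPKM (reads scaled by coding length and library size), which compares genes per length, the highest mean levels were 3365 ± 331 (SD, n = 5) for Atp5l, subunit g of ATP synthase, and 3033 ± 189.8 for Cox7c, a small complex IV subunit. The median level over a complex was 168 RPKM in complex I, 200 in complex II, 286 in complex III, 365 in complex IV and 598 in complex V, and cytochrome c (Cycs) stood at 1229.7 ± 144. The lowest gene of complex I apart from Ndufa4l2 was Ndufs1, the large iron-sulfur subunit of the NADH module, at 52.4 ± 2.92 RPKM. The catalytic subunit beta of ATP synthase, Atp5b, had 1022 ± 46.5 and the alpha subunit Atp5a1 854 ± 31.9.

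Atp5g1, Atp5g2 and Atp5g3 encode the same mature c subunit of the proton-driven ring and differ in their targeting sequences. By footprint RPKM, Atp5g2 supplied 45.0% ± 2.55 (SD, n = 5) of their sum in controls, Atp5g1 36.4% ± 2.52 and Atp5g3 18.6% ± 1.57. In the combination the shares were 45.2% ± 6.02, 34.0% ± 3.94 and 20.8% ± 2.30. The ranges of Atp5g1, 33.3 to 40.2% in controls and 30.8 to 40.2% in the combination, overlapped, and no comparison called any of these 3 genes in footprints. Summed over the 3 genes, the footprint level was 3.15 ± 0.18 times that of Atp5b per length in controls and 3.24 ± 0.27 times in the combination. The footprint level of Atp5a1 was 0.84 ± 0.04 times that of Atp5b per length in controls and 0.70 ± 0.05 times in the combination. It was 0.76 ± 0.04 times with the diet and 0.77 ± 0.09 times under DFMO. The lowest control was at 0.805, all combination mice (0.640 to 0.759) and all diet mice (0.701 to 0.797) lay below it, and the DFMO mice (0.680 to 0.909) overlapped the controls.

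Of the paired isoforms of complex IV, tumors carried footprints almost only on the widely expressed forms. The footprint CPM of Cox6a1 in controls was 197, 213, 264, 257 and 203, against 0 to 2.69 for its heart and muscle form Cox6a2. Cox7a2 had 117, 149.8, 131, 131 and 112 against 0.43 to 2.75 for the muscle form Cox7a1, and Cox8a 321, 304, 342, 340.4 and 250.3 against 0.43 to 4.71 for Cox8b. Cox6b2, a testis form, had 0 to 1.18 CPM in controls against 132 to 174 for Cox6b1. Cox7b2 had 0 to 0.3 CPM there, and Cox8c had no count in any library of either assay. In RNA, Cox7a1 had 52.0, 24.5, 42.1 and 34.7 CPM in controls and 9.78, 13.4, 6.19, 8.71 and 11.9 under DFMO, with no overlap on this scale. Cox8b had 56.1, 23.8, 52.8 and 35.3 in controls and 15.1, 18.9, 10.0, 13.9 and 14.1 under DFMO, again with no overlap. In RPKM both overlapped, at 51.8 to 158 in controls and 33.4 to 65.0 under DFMO for Cox7a1, and at 57.4 to 195 and 61.9 to 98.0 for Cox8b. Of these 4 controls, C5696, C5778 and C5781 are low-complexity libraries. The 8 skeletal muscle markers together had 332 to 744 CPM in control RNA and 45.7 to 170.4 under DFMO. The 3 brown fat markers had 163.9 to 241.9 and 80.5 to 164.3 CPM. These sums are not given in RPKM here, and the part of either tissue in the muscle forms was not tested. Ndufa4l2 stayed low, at 4.03 to 6.21 footprint CPM in controls and 2.57 to 5.44 in the combination.

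DFMO, alone and with the diet, was accompanied by more footprints on many subunits of complexes I, III, IV and V. Accessory and core subunits were both among the risers of the combination, with Ndufv2, Ndufs3, Ndufs8 and Uqcrc2 of the core. The catalytic subunit beta of ATP synthase and the flavoprotein of complex II did not pass the test in either group. Calls are at a Benjamini-Hochberg adjusted p under 0.05 from the edgeR quasi-likelihood test over all genes, and changes are log2 values ± SE. In the combination against control, 30 of 81 members tested rose and 5 fell, and the median member changed by 0.21 against 0.02 over all 12095 genes, of which 16.7% rose and 15.5% fell. Under DFMO alone 20 rose and 2 fell with a median of 0.08 (0.02 over all genes, 9.24% up and 8.84% down). On the diet alone 0 were called by edgeR, DESeq2 or limma, 10 had an unadjusted p under 0.05 in edgeR, the median was 0.00, and of all genes 0% were called. These 3 comparisons share the control mice. In the combination against diet alone 20 rose and 1 fell, with a median of 0.21 (14.8% and 14% of all genes). In the combination against DFMO alone edgeR, DESeq2 and limma called 0, with 6 at an unadjusted p under 0.05 in edgeR, and 3.22% of all genes were called. The interaction of diet and DFMO called 0 members with each of the 3 tools, 4 had an unadjusted p under 0.05, and 0.372% of genes were called. The 4 members not tested for too few counts were Cox6a2, Cox6b2, Cox7b2 and Cox8c.

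**Figure D1:**
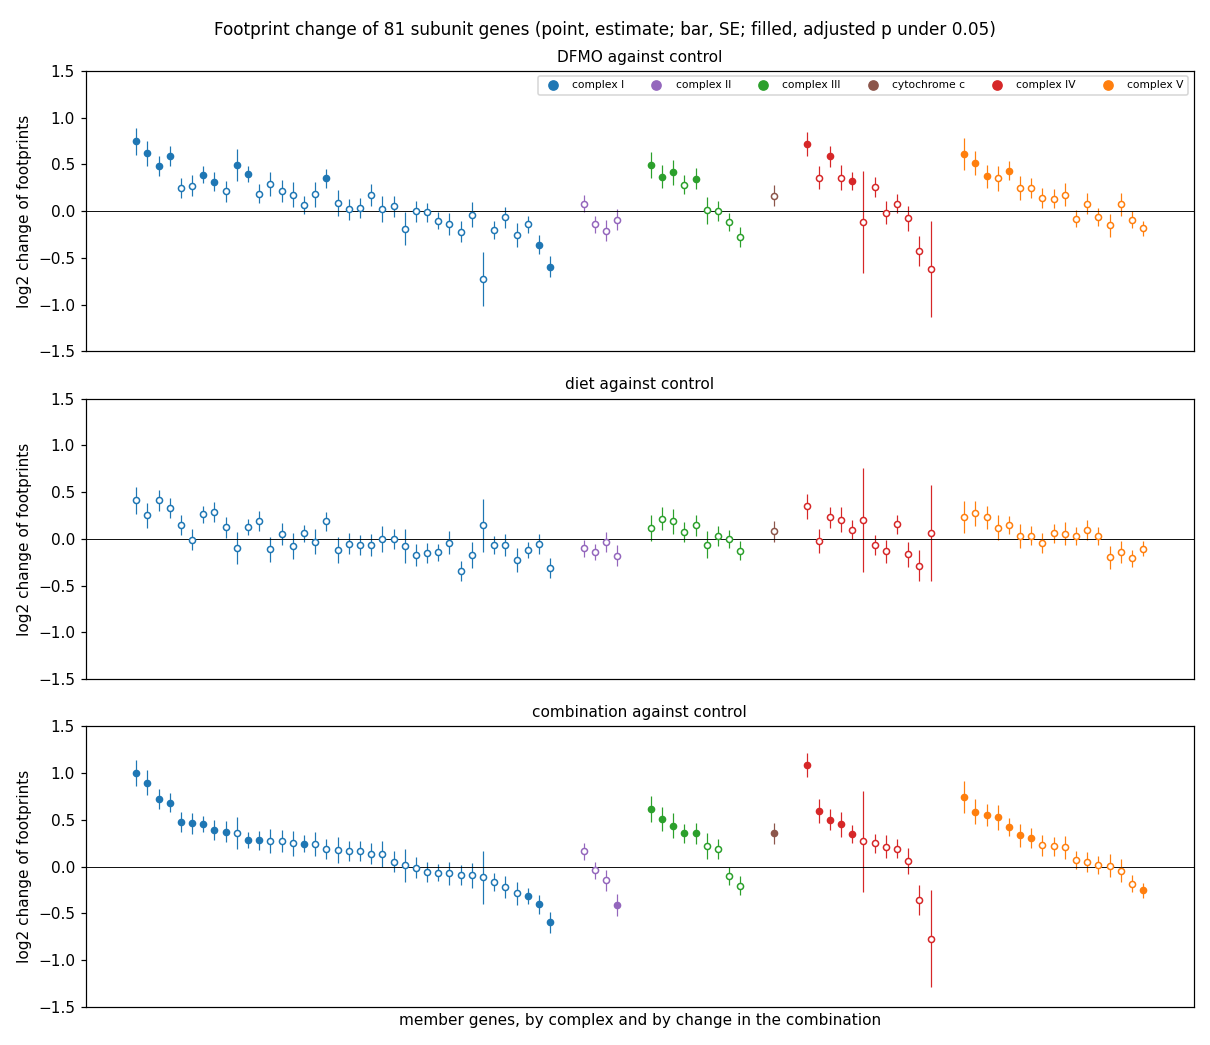
Log2 change of footprints (points, with SE bars) of the 81 members tested, ordered by complex and by their change in the combination, for DFMO, the diet and the combination against control; filled points passed an adjusted p of 0.05. The 30 risers of the combination spread over complexes I, III, IV and V and cytochrome c, and the diet panel holds no filled point.

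In complex I, 12 of 38 members rose and 3 fell in the combination, and 9 rose and 2 fell under DFMO alone. The largest change was in Ndufb4, an accessory subunit of the membrane arm. Its footprint CPM was 139, 139.7, 140.5, 148 and 150.3 in controls, 251, 219.7, 242, 271 and 218 under DFMO, 145, 189.7, 261, 178 and 181 with the diet, and 204, 279, 254, 343 and 355 in the combination. All DFMO and all combination mice lay above all controls, while 1 diet mouse, P5702, lay within them. Ndufb4 rose by 1.00 ± 0.14 (adjusted p = 2.82e-05) in the combination, a 2.00-fold level, and by 0.75 ± 0.14 (adjusted p = 0.00157) under DFMO (edgeR). Ndufa4 had a footprint CPM of 94.3, 116, 124, 128 and 100.0 in controls, 156, 168, 190.4, 181 and 166 under DFMO, 106, 160.0, 156, 132 and 116 with the diet, and 152, 203, 205, 243 and 245 in the combination. Here too the DFMO and combination mice were all above the controls, and the diet mice overlapped them. The changes of Ndufa4 were 0.90 ± 0.13 (adjusted p = 4.63e-05) in the combination, 0.62 ± 0.13 (adjusted p = 0.00375) under DFMO and 0.64 ± 0.13 (adjusted p = 0.00113) between combination and diet (edgeR).

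The next complex I risers of the combination were Ndufa11 and Ndufa6, accessory subunits of the membrane arm and of the matrix arm. The changes of Ndufa11 were 0.72 ± 0.11 (adjusted p = 6.25e-05) in the combination and 0.48 ± 0.11 (adjusted p = 0.00521) under DFMO, with control CPM of 49.5 ± 2.36 (SD, n = 5) and combination CPM of 81.8 ± 11.5 (edgeR). Ndufa6 rose by 0.69 ± 0.11 (adjusted p = 6.74e-05) and 0.59 ± 0.11 (adjusted p = 0.00104) in the same comparisons (edgeR). Of the nuclear-encoded core subunits of the matrix arm, the arm that holds the flavin and the iron-sulfur centres, Ndufv2, Ndufs3 and Ndufs8 rose in the combination, and Ndufv1, Ndufs1 and Ndufs7 did not pass. Ndufv2 rose by 0.46 ± 0.09 (adjusted p = 0.00063), Ndufs3 by 0.39 ± 0.11 (adjusted p = 0.00774) and Ndufs8 by 0.28 ± 0.10 (adjusted p = 0.042) (edgeR). Ndufv1, the flavin-binding subunit, had a footprint CPM of 153, 151, 166, 151 and 161 in controls, 144, 122, 139, 139 and 137 under DFMO, 147, 134.8, 177, 145 and 144 with the diet, and 125, 124, 132, 164 and 153 in the combination, and changed by -0.20 ± 0.10 (adjusted p = 0.15) under DFMO and -0.17 ± 0.10 (adjusted p = 0.189) in the combination (edgeR). All DFMO mice were below all controls in Ndufv1, and the other groups overlapped. Ndufs1 had 110.3, 114, 109, 122 and 114 in controls, 182, 138, 139, 134 and 133 under DFMO, 103, 132, 139, 139 and 134.8 with the diet, and 131, 132, 117, 143 and 127 in the combination. All DFMO mice lay above the controls, with D5747 the highest, and PD5746 alone of the combination mice lay within them. Ndufs1 rose by 0.35 ± 0.10 (adjusted p = 0.0213) under DFMO and changed by 0.19 ± 0.10 (adjusted p = 0.161) in the combination (edgeR).

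The complex I members that fell were Ndufv3, Ndufc2 and Ndufs4. Ndufv3, a supernumerary subunit of the NADH module, had a footprint CPM of 136, 125, 113, 157 and 104 in controls, 78.6, 82.8, 105, 75.4 and 78.5 under DFMO, 109.7, 103, 107, 95.8 and 96.4 with the diet, and 74.8, 88.4, 80.1, 85.2 and 91.8 in the combination. Combination mice were all below the controls, and D5806 alone of the DFMO mice lay within their range. Ndufv3 fell by 0.59 on the log2 scale under DFMO, -0.59 ± 0.11 (adjusted p = 0.00144), and by as much in the combination, -0.59 ± 0.11 (adjusted p = 0.000386) (edgeR). Ndufc2, an accessory subunit of the membrane arm, had 172, 199, 168, 186 and 156 in controls, 116, 133, 167, 138 and 134.7 under DFMO, 163, 158, 207, 165 and 157 with the diet, and 123, 133, 130.2, 144 and 136 in the combination. All combination mice were below all controls and below all diet mice. It changed by -0.40 ± 0.10 (adjusted p = 0.00509) against control and -0.35 ± 0.10 (adjusted p = 0.0141) against the diet (edgeR). Against the diet the call of Ndufc2 did not pass in limma on RPKM. Ndufs4, an accessory subunit of the matrix arm, changed by -0.32 ± 0.09 (adjusted p = 0.00908) in the combination (edgeR).

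Complex II, which is also succinate dehydrogenase of the citric acid cycle, had 1 call among its 4 members in the combination, a fall. Sdha, the flavoprotein, had a footprint CPM of 211, 202, 188, 229.5 and 203 in controls, 195, 165, 185, 197 and 195 under DFMO, 173, 193, 195, 181 and 197 with the diet, and 191, 179, 187, 232 and 217 in the combination. Sdhb, the iron-sulfur subunit, had 149.7, 151, 181, 161 and 145 in controls, 181, 162, 169.6, 157 and 160.0 under DFMO, 162, 155, 135.1, 137 and 144 with the diet, and 151, 171, 177, 194 and 189 in the combination. Groups overlapped for both, with changes in the combination of -0.04 ± 0.09 (adjusted p = 0.758) and 0.17 ± 0.09 (adjusted p = 0.165) (edgeR). Sdhb passed against the diet, 0.27 ± 0.09 (adjusted p = 0.0292) (edgeR), where PD5732 lay within the diet range and the call ended without any 1 of 6 mice. The membrane anchor Sdhc had 128, 118, 118, 116 and 117 in controls, 144, 119.5, 111, 97.5 and 88.4 under DFMO, 107, 91.0, 125, 106 and 98.9 with the diet, and 75.8, 89.1, 89.2, 101 and 93.3 in the combination. Every combination mouse was below every control, D5747 was the highest of all mice, and Sdhc changed by -0.41 ± 0.12 (adjusted p = 0.00911) in the combination against -0.09 ± 0.12 (adjusted p = 0.622) under DFMO (edgeR). The Sdhc fall did not pass in limma on RPKM, at -0.35. The other anchor, Sdhd, changed by -0.15 ± 0.11 (adjusted p = 0.318) (edgeR).

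In complex III, 5 of 9 members rose in the combination and 4 under DFMO. Uqcrq, a small subunit next to cytochrome b, had a footprint CPM of 85.6, 85.9, 75.4, 99.5 and 72.5 in controls, 131, 127, 105, 123 and 102 under DFMO, 106, 97.9, 94.3, 77.02 and 81.3 with the diet, and 93.1, 118, 114, 168 and 149.8 in the combination. DFMO mice were all above the controls, and PD5732 was the one combination mouse within the control range. It rose by 0.62 ± 0.14 (adjusted p = 0.00182) in the combination and 0.49 ± 0.14 (adjusted p = 0.0181) under DFMO (edgeR), and this DFMO call ended without control mouse C5840 and in limma on RPKM. The electron-carrying subunits did not pass. Cyc1, cytochrome c1, had 174, 164, 175, 201 and 187 in controls, 156, 152, 154, 146 and 136 under DFMO, 192, 149, 149, 167 and 169 with the diet, and 133, 144, 138, 186 and 183 in the combination. Uqcrfs1, the Rieske iron-sulfur protein, had 206, 198, 192, 199.6 and 194 in controls, 169, 180.0, 216, 181 and 165 under DFMO, 199.9, 193, 239.5, 185 and 174 with the diet, and 171, 177, 173, 212 and 192 in the combination. Combination mice overlapped the controls for both, while all DFMO mice were below the controls for Cyc1, with combination changes of -0.20 ± 0.11 (adjusted p = 0.145) for Cyc1 and -0.10 ± 0.10 (adjusted p = 0.461) for Uqcrfs1 (edgeR). Uqcrc1, a core protein of the matrix side, had 282, 252, 273, 286 and 265 in controls, 334, 256, 286, 239 and 244 under DFMO, 288, 287, 295, 266 and 254 with the diet, and 278, 274, 274, 381 and 335 in the combination, overlapped between groups and changed by 0.18 ± 0.11 (adjusted p = 0.193) (edgeR). Its partner Uqcrc2 rose by 0.36 ± 0.10 (adjusted p = 0.0104) (edgeR). Cytochrome c, Cycs, had 355, 408, 351, 454 and 376 in controls, 363, 397, 432, 518 and 473 under DFMO, 386, 454, 403, 410.1 and 404 with the diet, and 401, 519, 449, 607 and 515 in the combination. The groups overlapped, and the change of 0.36 ± 0.11 (adjusted p = 0.0202) in the combination lost its call without C5696, without C5781 and without PD5805 (edgeR).

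In complex IV, 5 of 12 members tested rose in the combination and 3 under DFMO, with no fall. Cox7b had a footprint CPM of 77.8, 106, 80.4, 89.7 and 87.9 in controls, 118, 145, 147, 173 and 147 under DFMO, 89.0, 122, 121, 113 and 118 with the diet, and 137, 184, 193, 225 and 201 in the combination. All combination mice were above all control and all diet mice, and all DFMO mice were above the controls. Cox7b rose by 1.08 ± 0.13 (adjusted p = 5.68e-06) in the combination, a 2.12-fold level, by 0.72 ± 0.13 (adjusted p = 0.00108) under DFMO and by 0.74 ± 0.13 (adjusted p = 0.000301) between combination and diet (edgeR). Its changes were 0.35 ± 0.13 (adjusted p = 0.308) on the diet and 0.36 ± 0.13 (adjusted p = 0.109) between combination and DFMO (edgeR). Cox5a, a matrix-side subunit, had 159.8, 148, 177, 168 and 147 in controls, 184, 201, 194, 227 and 195 under DFMO, 165, 178, 193, 155 and 167 with the diet, and 166, 202, 212, 234 and 205 in the combination. It rose by 0.33 ± 0.10 (adjusted p = 0.024) under DFMO and 0.35 ± 0.10 (adjusted p = 0.00822) in the combination (edgeR), where only PD5732 lay within the control range. Cox6c had 239, 236, 215, 267 and 225 in controls, 199.6, 219, 231, 292 and 227 under DFMO, 181, 184, 266, 230.2 and 217 with the diet, and 215, 285, 261, 310.4 and 297 in the combination, overlapped between groups and changed by 0.21 ± 0.12 (adjusted p = 0.189) (edgeR). Cox8a, the member with the fewest codons ending in A, changed by -0.36 ± 0.16 (adjusted p = 0.0923) in the combination and -0.43 ± 0.16 (adjusted p = 0.0672) under DFMO (edgeR). Cox7a2 rose by 0.59 ± 0.13 (adjusted p = 0.00123) and Cox7c by 0.50 ± 0.11 (adjusted p = 0.0019) in the combination (edgeR).

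**Figure D2:**
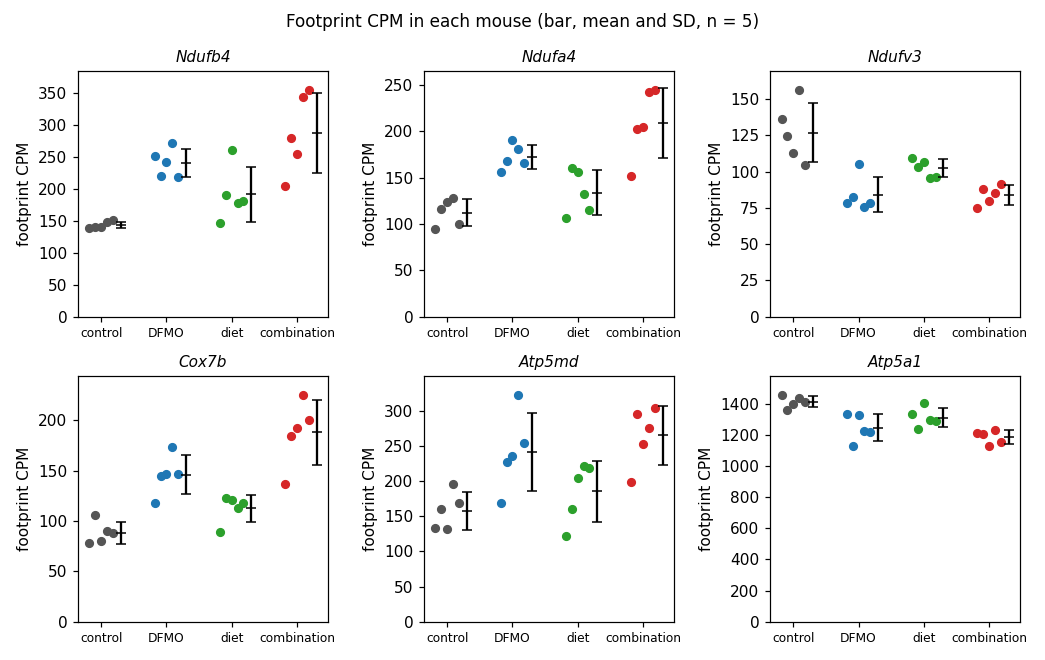
Footprint CPM of 6 members in each mouse, by group, with mean and SD beside the points (n = 5). For Ndufb4, Ndufa4 and Cox7b every DFMO and combination mouse is above every control, while the combination mice of Ndufv3 and Atp5a1 are all below the controls.

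In complex V, 7 of 17 members rose and 1 fell in the combination, and 4 rose under DFMO. The risers were parts of the membrane sector or of the stalks, with Atp5e of the central stalk among them. Atp5md had a footprint CPM of 133, 159.7, 131, 196 and 169 in controls, 168, 227, 235, 323 and 255 under DFMO, 122, 160.2, 205, 221 and 219 with the diet, and 198, 296, 252, 276 and 303 in the combination. The combination mice lay above all controls, and D5747 alone of the DFMO mice lay within them. It rose by 0.74 ± 0.17 (adjusted p = 0.00248) in the combination and 0.61 ± 0.17 (adjusted p = 0.0186) under DFMO (edgeR). Atp5mpl, another small membrane protein of the enzyme, rose by 0.59 ± 0.13 (adjusted p = 0.0015), and Atp5k, subunit e, by 0.55 ± 0.12 (adjusted p = 0.00129) (edgeR). Atp5pb, the b subunit of the peripheral stalk, rose by 0.43 ± 0.10 (adjusted p = 0.00503) under DFMO (edgeR). Of the catalytic head, Atp5b passed in no footprint comparison and Atp5a1 fell in the combination. Atp5b had 1554, 1573, 1588, 1693 and 1673 in controls, 1404, 1361, 1668, 1720.0 and 1596 under DFMO, 1641, 1520.0, 1913, 1616 and 1545 with the diet, and 1622, 1516, 1531, 1782 and 1722 in the combination, with overlapping groups and a combination change of 0.02 ± 0.09 (adjusted p = 0.914) (edgeR). Atp5a1 had 1456, 1361, 1399.6, 1437 and 1408 in controls, 1333, 1129, 1325, 1222 and 1219.8 under DFMO, 1333, 1237, 1402, 1295 and 1287 with the diet, and 1214, 1203, 1131, 1229.6 and 1151 in the combination. All combination mice were below all controls, and the fall of 0.25 on the log2 scale had an edgeR adjusted p = 0.0188 that did not pass without PD5746 or in limma on RPKM. The DFMO mice were also all below the controls, with a change of -0.18 ± 0.08 (adjusted p = 0.117) (edgeR). Among the c subunit genes, Atp5g1 had 533, 464, 466, 528 and 409 in controls, 649.8, 502, 499, 446 and 426 under DFMO, 470.1, 436, 433, 435 and 404 with the diet, and 370.2, 416, 456, 574 and 512 in the combination. Atp5g2 had 604, 596, 672, 676 and 630.5 in controls, 489, 639, 727, 811 and 695 under DFMO, 635, 657, 736, 685 and 682 with the diet, and 663, 693, 719, 549 and 668 in the combination. Atp5g3 had 239, 280.4, 231, 276 and 239 in controls, 284, 276, 291, 287 and 257 under DFMO, 222, 254, 284, 227 and 242 with the diet, and 222, 294, 284, 353 and 329 in the combination. All 3 overlapped between groups. Against the diet alone, the combination raised Atp5j, the coupling factor of the peripheral stalk, by 0.41 ± 0.13 (adjusted p = 0.0229), Ndufb8 of complex I by 0.47 ± 0.11 (adjusted p = 0.00291) and Uqcrq by 0.50 ± 0.14 (adjusted p = 0.00916) (edgeR). The count of 21 members called against the diet ranged from 9 without PD5805 or P5828 to 35 without PD5732, and the Atp5j call ended without any 1 of 4 mice. The count was 10 without P5702, 11 without PD5736 or PD5825 and 12 without P5785. The share of all genes called without these mice is not given here.

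Summed over all 85 members, footprint CPM was 15942 ± 535 in controls, 16857 ± 952 under DFMO, 15857 ± 1002 with the diet and 17507 ± 1695 in the combination (SD, n = 5). The group ranges overlapped, so no group stood apart in the total. For complex IV the sums were 2275 ± 144 in controls and 2804 ± 372 in the combination, and for complex II 586 ± 24.9 and 559.7 ± 54.7. PD5732 had the lowest sum of the combination in complexes I, II, III, IV and V, and PD5805 the highest. Of 85 members, 17 had every combination mouse above every control and 5 every one below, under DFMO these numbers were 14 and 3, and with the diet 3 and 2, in each case among the 81 tested. Of all 12095 genes tested, 9.81% had every combination mouse above every control and 10.1% every one below, against 6.04% and 6.07% under DFMO and 1.56% and 1.37% with the diet. Of all genes, 16.7% rose and 15.5% fell in the combination, and 9.24% and 8.84% did under DFMO.

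**Figure D3:**
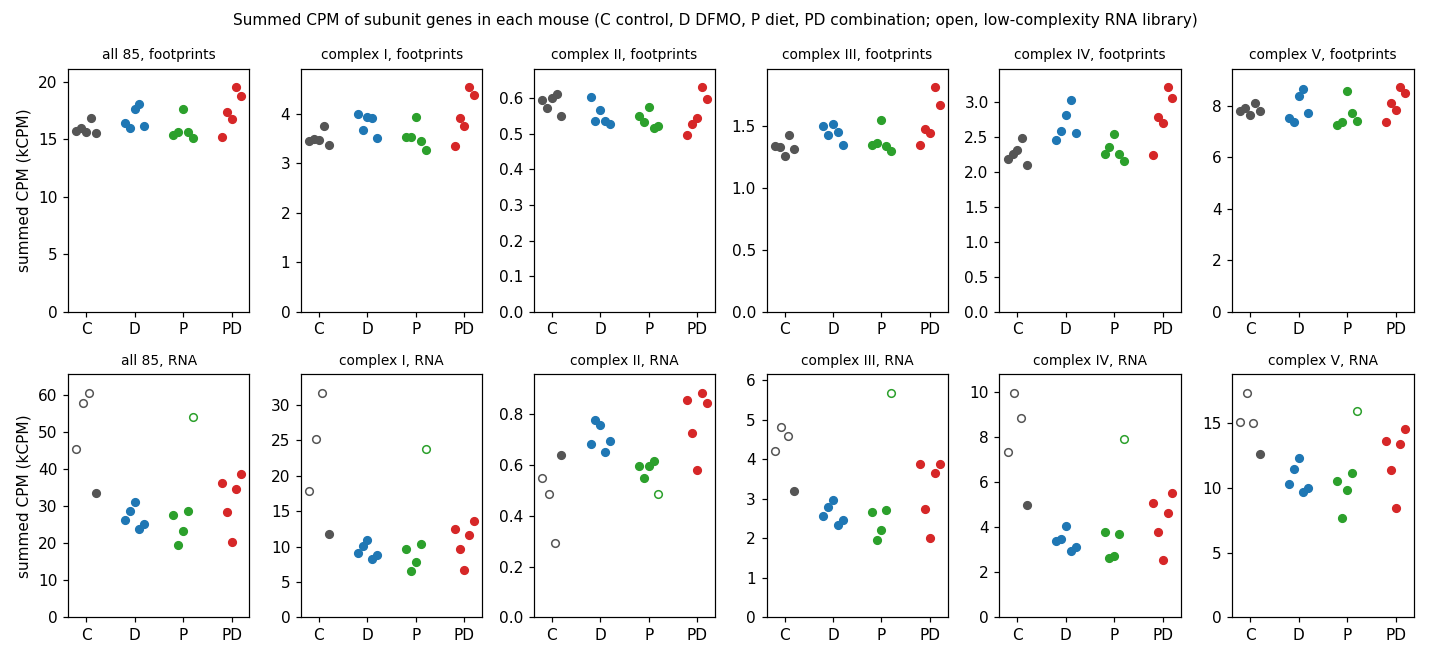
Summed CPM (in kCPM) of all members and of complexes I to V in each mouse, footprints above and RNA below, by group; open circles mark the 4 RNA libraries of low complexity. In RNA these 4 libraries stand above the others in complexes I, III, IV and V and below most others in complex II.

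RNA of many members fell against control, while the median over all genes was above 0, but under DFMO and in the combination this split turned when RPKM scaled by library total was used, and sizes and counts shrank without the 4 libraries of low complexity. Under DFMO 43 of 84 members fell and 5 rose, with a median of -0.81 against 0.28 over all 14280 genes, of which 21.9% rose and 17.5% fell. In the combination 30 fell and 6 rose with a median of -0.46 against 0.31 (23.1% up and 17.7% down), and on the diet 7 fell and 0 rose with a median of -0.67 against 0.23 (2.27% up and 1.13% down). Against the diet the combination had 6 up and 0 down (9.03% and 8.68%), and against DFMO 1 up, Uqcrb (3.07% up and 2.07% down of all genes). The diet count was 51 without P5828, 37 without C5812, 0 without any 1 of C5696, C5778, P5705, P5784 and P5785, and 1 to 6 without any other mouse. The combination count fell from 36 to 19 without C5778 and to 20 without C5781, and the DFMO count from 48 to 31 without C5778. How many of all genes were called without single mice is not given here, so these counts describe the members only. Without the 4 low-complexity libraries, which leaves C5812 as the one control assumed to vary like the other groups, 7 members fell and 0 rose under DFMO (median -0.35, with 6.92% of all genes down and 8.03% up), 3 fell and 0 rose in the combination (median -0.12, 6.97% and 8.62%), and 0 were called on the diet (29 at an unadjusted p under 0.05, with 0.0461% of all genes called). Against the diet 24 members then rose and 1 fell in the combination (median 0.33), while 18.7% of all genes rose and 17% fell (median 0.01). The median over all genes was then 0.09 under DFMO and in the combination. On RPKM, which scales by library total, limma gave 30 of 84 members up and 14 down under DFMO, where 57% of all genes rose and 4.18% fell, and 32 up and 7 down in the combination (53.3% and 5.08% of all genes). Its median over all genes was 1.35 and 1.29, so that the median of members minus that of all genes was -1.10 and -0.86, against -1.09 and -0.78 in edgeR.

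Of the 43 members whose RNA fell under DFMO, 38 had coding sequences under 600 bases. Most of the 84 members tested are this short, with 27 under 300 bases and 36 of 300 to under 600. Cox7c had an RNA CPM of 1687, 3133, 4254 and 866 in controls C5696, C5778, C5781 and C5812, of 406, 409, 359, 350.3 and 346 under DFMO, of 563, 339, 319, 584 and 2010.0 with the diet and of 557, 401, 310.4, 481 and 669 in the combination. The 4 high values of 1687 to 4254 are the low-complexity libraries, and C5812 was above all treated mice but P5828. It changed by -2.73 ± 0.48 (adjusted p = 0.000516) under DFMO (edgeR), and by -1.21 ± 0.32 (adjusted p = 0.0168) without these 4 libraries (edgeR). Ndufc2 had 235, 258, 296 and 178 in controls and 136, 103, 88.3, 96.0 and 117 under DFMO, with no overlap on this scale, and changed by -1.16 ± 0.23 (adjusted p = 0.000933) (edgeR). In RPKM its groups overlapped, at 337 to 504 in controls and 312 to 496 under DFMO, and limma gave -0.13, which did not pass. Uqcrb, a small complex III subunit, changed by -1.38 ± 0.26 (adjusted p = 0.000717) under DFMO, by -1.22 ± 0.26 (adjusted p = 0.0272) on the diet and by 0.94 ± 0.25 (adjusted p = 0.027) between combination and DFMO (edgeR). Atp5e, the epsilon subunit, changed by -1.77 ± 0.37 (adjusted p = 0.00153) and Ndufv2, an iron-sulfur subunit, by -2.19 ± 0.46 (adjusted p = 0.00149) (edgeR). Atp5l changed by -1.57 ± 0.37 (adjusted p = 0.00332), and in the combination Ndufs4 changed by -1.54 ± 0.36 (adjusted p = 0.00265) and Uqcrq by -1.19 ± 0.46 (adjusted p = 0.0414) (edgeR). Without the low-complexity libraries Uqcrq turned to 0.31 ± 0.43 (adjusted p = 0.652) (edgeR). Cycs changed by -0.93 ± 0.27 (adjusted p = 0.0101) under DFMO (edgeR), and turned to 0.15 in limma on RPKM, with 513, 359, 224 and 405 CPM in controls and 226, 207, 179, 189.9 and 185 under DFMO. On the diet Ndufb2 changed by -0.84 ± 0.22 (adjusted p = 0.043), Cox7b by -1.12 ± 0.28 (adjusted p = 0.0406) and Atp5md by -1.12 ± 0.27 (adjusted p = 0.038) (edgeR). Between combination and diet Ndufb2 changed by 0.94 ± 0.21 (adjusted p = 0.0043), Uqcrc2 by 0.85 ± 0.21 (adjusted p = 0.00693) and Atp5c1, the gamma subunit, by 0.86 ± 0.28 (adjusted p = 0.035) (edgeR).

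The 6 members whose RNA rose in the combination were Sdhd, Cox7a2l, Atp5b, Cyc1, Uqcrc1 and Sdhb, and none of them passed without the low-complexity libraries. Sdhd had an RNA CPM of 18.4, 4.56, 6.08 and 32.9 in controls and 53.9, 45.8, 41.1, 50.6 and 51.3 in the combination, without overlap, and 4.48 in P5828. It rose by 1.62 ± 0.52 (adjusted p = 0.0181) in the combination and 1.40 ± 0.52 (adjusted p = 0.0367) under DFMO (edgeR), and changed by 0.54 ± 0.22 (adjusted p = 0.0976) without the low-complexity libraries (edgeR). Sdhb had 344, 388, 224 and 335 in controls and 528, 447, 346, 527 and 539 in the combination, with PD5746 inside the control range, and rose by 0.56 ± 0.21 (adjusted p = 0.0353) (edgeR). Uqcrc1 had 408, 346, 157 and 462 in controls and 781, 567, 424, 753 and 698 in the combination, with PD5746 inside the control range, and rose by 0.91 ± 0.28 (adjusted p = 0.0159) (edgeR). Atp5b, with 1319, 799.7, 318 and 1811 in controls and 2338, 2138, 1715, 2457 and 2317 in the combination, overlapped in PD5746 and rose by 1.05 ± 0.37 (adjusted p = 0.0298) (edgeR). In RPKM, on which limma called 53.3% of all genes up, these overlaps were absent. Sdhb had 109 to 404 RPKM in controls and 561 to 788 in the combination. Uqcrc1 had 44.7 to 327 and 404 to 660, and Atp5b 82.3 to 1162 and 1460 to 1956. Cox7a2l rose by 1.30 ± 0.33 (adjusted p = 0.00426) and Cyc1 by 0.91 ± 0.34 (adjusted p = 0.035) in the combination (edgeR).

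The RNA change of members followed coding length. Under DFMO, the 27 members with coding sequences under 300 bases had a median change of -1.13 with 18 down, the 36 of 300 to under 600 bases -0.84 with 20 down, the 12 of 600 to under 1200 bases -0.02 and the 9 of 1200 and more 0.16. Other genes of the same lengths had medians of -0.65, -0.15, 0.23 and 0.40. Spearman's rho between coding length and RNA change across 84 members was 0.45 for DFMO, 0.50 for the diet and 0.38 for the combination, and 0.42, 0.44 and 0.25 without the low-complexity libraries. Across 14196 other genes it was 0.10 under DFMO. These are values across genes of the same libraries, which are not independent replicates. In footprints the rho was -0.20 under DFMO and -0.31 in the combination (81 members).

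**Figure D4:**
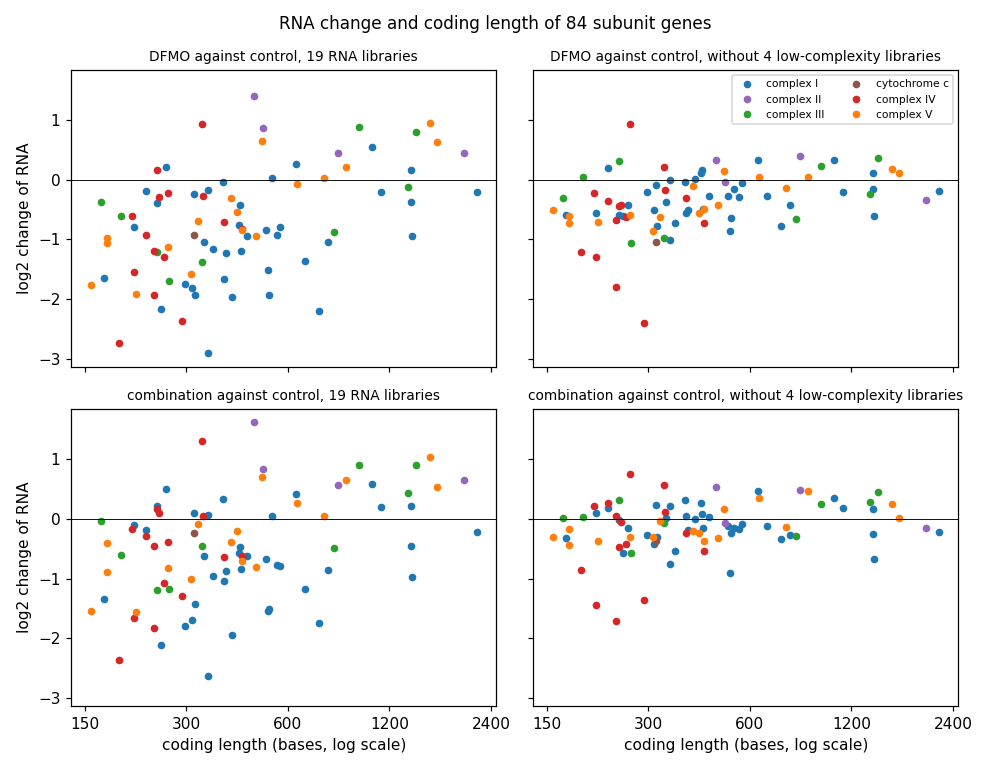
Log2 change of RNA (edgeR, TMM scaling) against coding length (log scale) for 84 members under DFMO and in the combination against control, with 19 RNA libraries on the left and without the 4 of low complexity on the right. On the left short members reach -2.91, the 9 members of 1200 bases and more have medians of 0.16 under DFMO and 0.43 in the combination, and on the right the points lie closer to 0.

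Efficiency, footprints relative to RNA in one fit of both assays, rose for 44 of 81 members and fell for 4 under DFMO, with a median of 0.98 against -0.18 over all 11847 genes (15.1% up and 16.3% down), a split that also turned on RPKM. In the combination 37 rose and 4 fell with a median of 0.71 against -0.18 (13.7% and 14%), and on the diet 8 rose and 0 fell with a median of 0.64 against -0.20 (1.01% and 3.75%). edgeR called 0 between combination and DFMO (1 at an unadjusted p under 0.05, 0 by DESeq2 and limma, 0% of genes), and 0 between combination and diet (11 at an unadjusted p under 0.05, 3 by DESeq2, 0 by limma, 0.819% of genes). Without the low-complexity libraries 13 rose and 0 fell under DFMO (5.43% of all genes up and 5.49% down), 1 and 0 in the combination (2.25% and 3.25%) and 1 and 0 on the diet (0.159% and 0.835%). limma on RPKM split them 14 up and 23 down under DFMO (3.22% of all genes up and 53.3% down) and 15 up and 23 down in the combination (3.65% and 44.7%), with the median of members minus that of all genes at 1.22 and 0.93, against 1.16 and 0.88 in edgeR. Fitted with a term for each mouse, over the 38 libraries of the 19 mice sequenced in both ways, the diet had 0 calls (38 at an unadjusted p under 0.05), against 6 for the same libraries with no such term.

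In complex I 23 members rose in efficiency under DFMO and 21 in the combination, with 0 down in both. The members that fell under DFMO were Sdhd, Cyc1, Atp5a1 and Atp5b, and in the combination Sdhc, Sdhd, Cyc1 and Atp5a1. Cox7c changed by 3.35 ± 0.50 (adjusted p = 6.81e-05) under DFMO and 2.91 ± 0.50 (adjusted p = 0.000339) in the combination (edgeR), and by 1.33 ± 0.32 (adjusted p = 0.0116) in the combination without the low-complexity libraries (edgeR). Ndufb4 changed by 2.46 ± 0.41 (adjusted p = 0.000126) under DFMO, 2.11 ± 0.41 (adjusted p = 0.000746) in the combination and 1.73 ± 0.41 (adjusted p = 0.0194) with the diet (edgeR). Cox7b changed by 1.98 ± 0.33 (adjusted p = 0.000139), 1.63 ± 0.33 (adjusted p = 0.000949) and 1.49 ± 0.33 (adjusted p = 0.0174) in the same order (edgeR). Sdhd changed by -1.55 ± 0.50 (adjusted p = 0.0183) and -1.70 ± 0.50 (adjusted p = 0.0129), Cyc1 by -1.10 ± 0.35 (adjusted p = 0.0177) and -1.03 ± 0.35 (adjusted p = 0.0271), and Atp5a1 by -0.75 ± 0.26 (adjusted p = 0.0251) and -0.71 ± 0.26 (adjusted p = 0.0357) under DFMO and in the combination (edgeR). Under DFMO Cycs changed by 1.16 ± 0.31 (adjusted p = 0.00502), Atp5e by 2.07 ± 0.41 (adjusted p = 0.000507), Uqcrb by 1.80 ± 0.30 (adjusted p = 0.000132) and Ndufa6 by 1.87 ± 0.33 (adjusted p = 0.000172) (edgeR). In the combination Uqcrq changed by 1.87 ± 0.50 (adjusted p = 0.00674) and Atp5k by 2.14 ± 0.54 (adjusted p = 0.00477), and on the diet Atp5md by 1.40 ± 0.35 (adjusted p = 0.023) and Uqcrb by 1.40 ± 0.30 (adjusted p = 0.0147) (edgeR). The diet count of 8 was 45 without P5828, 20 without C5812 and 0 without P5784, and the combination count of 41 was 22 without C5778. The share of all genes called without these mice is not given here.

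Members with more codons ending in A tended to have larger footprint changes. Across the 80 members tested with a coding sequence, Spearman's rho was 0.40 under DFMO, 0.37 in the combination and 0.33 with the diet, against 0.20, 0.09 and 0.10 across 11971 other genes. Other codon shares of the members were looked at too. In the same order, rho was -0.18, -0.20 and -0.34 for codons ending in G. It was -0.17, -0.10 and 0.04 for those ending in C, and 0.04, 0.004 and -0.02 for T. For proline codons it was -0.16, -0.12 and -0.12, and for arginine codons 0.01, 0.02 and -0.03. All these values share libraries and are a description. The 30 risers of the combination had a median share of 17.9% (9.76 to 32.5%), the 5 that fell 16.7%, those not called 14.5%, and all 12051 genes tested 17.8%. Cox7b with 32.5% changed by 1.08 ± 0.13, Uqcrh with 30.3% by 0.51 ± 0.13 and Cox8a with 2.90% by -0.36 ± 0.16. Ndufb4 with 17.1% and Uqcrq with 9.76% rose with shares below that of the median gene, and Ndufv3 fell with 28.0%.

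**Figure D5:**
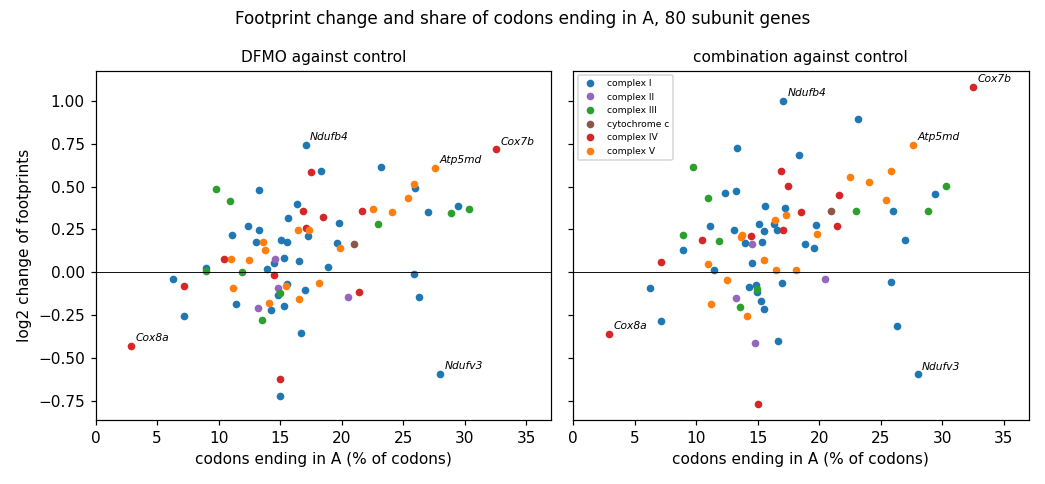
Log2 change of footprints against the share of codons ending in A (percent of codons) for 80 members under DFMO and in the combination against control, coloured by complex. Cox7b lies at 32.5% and 1.08 in the combination and Cox8a at 2.90%, while Ndufv3 lies apart below the others on the right.

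Promoter windows of RefSeq (250 bases before to 50 after a start) were matched for 70 of 85 members. On either strand, the NRF1 letters (GCGCA, any base, GCGC) stood in windows of 17 of these 70 or 24.3%, against 7.17% of 17491 protein-coding genes, as in the Ndufb4 promoter printed above. The ETS letters CCGGAAG stood in 17 or 24.3% against 12.9%, the YY1 letters AAGATGGCG in 7 or 10.0% against 2.14%, and the CRE letters TGACGTCA in 5 or 7.14% against 2.54%. The ETS letters end in AAG, with which the YY1 letters start, so that matches of both can share these bases. A match is a description and no shown binding site. Among matched members tested in footprints in the combination, 5 of 17 with the NRF1 letters rose and 0 fell (median 0.18), and of the 51 without them 21 rose and 3 fell (median 0.25). The members with no window matched included Atp5a1, Atp5mpl, Cox6a2, Cox6c, Cox8c, Cyc1, Ndufa2, Ndufa4l2, Ndufb9, Ndufs1, Sdhc, Uqcrb, Uqcrc2 and Uqcrq.

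Among other genes of the pathway, some rose and some fell. The counts below stand beside 16.7% of all genes up and 15.5% down in footprints of the combination. Under DFMO alone these shares were 9.24% and 8.84%. In footprints of the combination against control, of 14 assembly factors of complex I 1 rose, Tmem126b (0.93 ± 0.21), and 3 fell, with Ndufaf3 at -0.44 ± 0.14 and Nubpl at -0.55 ± 0.19, median -0.13. Of 18 factors of complex IV 1 rose, Cox14 (0.80 ± 0.21), and 6 fell, with the cytochrome oxidase assembly proteins Coa3 at -0.71 ± 0.15 and Coa7 at -0.66 ± 0.15, median -0.24. Of 4 factors of complex II, 5 of complex III and 4 of complex V tested, no gene passed in edgeR, and the lowest adjusted p was 0.0951 (Uqcc2). Of 23 genes that copy, transcribe or translate mitochondrial DNA 2 rose and 6 fell, with Mterf2 at 0.96 ± 0.31, the RNA-binding Slirp at 0.48 ± 0.13, Tefm, a transcription elongation factor, at -0.76 ± 0.16 and Tsfm, a translation elongation factor, at -0.51 ± 0.14, median -0.28. Among 9 nuclear regulators tested, Ppargc1a, a coactivator of mitochondrial genes, rose by 2.97 ± 0.76 and 3 fell, with its relative Pprc1 at -0.84 ± 0.14 and Yy1 at -0.48 ± 0.10. Of 17 citric acid cycle genes 3 rose and 2 fell, with Pdha1 at 0.33 ± 0.10, Idh3g at 0.31 ± 0.09, Dlat at -0.31 ± 0.11 and Mdh2 at -0.22 ± 0.08. Of 19 glycolysis genes tested 3 rose and 8 fell, with Aldoc at 2.69 ± 0.66, Ldhb at 1.66 ± 0.45, Hk2, a hexokinase, at -1.50 ± 0.20 and Pfkl, a phosphofructokinase, at -0.65 ± 0.11. Under DFMO alone the same lists had 1 up and 1 down for complex I, 1 and 2 for complex IV, 2 and 3 for mitochondrial DNA, 0 and 3 for regulators, 0 and 2 for the citric acid cycle and 1 and 5 for glycolysis.

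Markers of other cell types moved with the groups in footprints. For the counts of markers called, the shares of all genes were 9.24% up and 8.84% down under DFMO. In the combination they were 16.7% up and 15.5% down. The 7 erythroid markers together had 3663 to 13434 CPM in controls, 784 to 1914 under DFMO, 13295 to 45018 with the diet and 2653 to 13246 in the combination, and 6 of 6 tested fell under DFMO. Of the 6 macrophage markers 5 fell in the combination, and their sum was 283 to 392 CPM in controls and 200.3 to 269 in the combination. Of the 8 skeletal muscle markers 3 fell in the combination. Acta1 carried most of their footprint sum, with 866 to 1052 CPM in controls and 734 to 899 in the combination. The other 7 together had 39.6 to 123 CPM in controls, 14.1 to 49.9 in the combination and 8.0 to 37.8 under DFMO. In control RNA the order was reversed, with 37.8 to 156 CPM for Acta1 and 294 to 592 for the other 7. Acta1 kept 906 to 1090 footprint CPM under DFMO, with 17.9 to 43.3 CPM in RNA. The cause of this difference between the assays was not tested. Under DFMO 6 of 8 skeletal muscle, 5 of 5 pancreas, 4 of 6 macrophage and 2 of 5 endothelial markers fell as well. The 5 endothelial markers had 100.0 to 180.2 CPM in controls and 63.3 to 127 in the combination, and the 3 fibroblast markers 486 to 1108 and 394 to 818. The 5 adrenal cortex markers, of which 2 rose, had 11.2 to 101.8 and 64.7 to 204, and the 5 pancreas markers 24.9 to 796 and 104.7 to 1059.5. The 3 brown fat markers had 39.6 to 55.5 and 19.5 to 42.0, and the 4 Schwann cell markers 0.46 to 2.59 and 2.17 to 6.13. Heart, kidney and T cell markers summed to at most 9.87 CPM in any mouse, and the germ cell markers Prm1 and Tnp1 were at 0 in all groups. Among the neuroblast markers, Th rose and Mycn fell in the combination. The part of these cells in the changes of members was not tested. Genes of short subunits such as Cycs, Cox7c and Cox6c have processed pseudogenes of nearly the same sequence, among which the counting could split reads, so their levels carry that uncertainty.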

How the data were processed

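Ribosome footprints and RNA of tumor samples were sequenced, each mouse giving 1 extract; per the labels' protocols, tissue was lysed with cycloheximide, RNase I was used to make footprints, monosomes were taken on S-400 columns and RNA came from the same extracts. The authors deposited raw counts per transcript and RPKM (scaled by coding length and library total) of 20333 transcripts. Per the submitters' processing notes, cutadapt, Bowtie2, HISAT2 and GRCm38 were used. Versions, counting program and annotation: not given in the sources used here. RNA of C5840 was not analysed here. Results of a few genes are not reported here. All columns were matched to samples, with 0 left over.

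Counts were tested with edgeR 4.0.16 (TMM scaling, its filter on low counts, quasi-likelihood, Benjamini-Hochberg over all genes, threshold 0.05) in R 4.3.3, with all groups of an assay in 1 fit. Efficiency is the interaction of assay and group in 1 fit over genes that passed both filters. Alternatives were DESeq2 1.42.0, RLE scaling, no filter, limma 3.58.1 on log2 of the deposited RPKM plus 0.1, mice or library groups left out, and the mouse as a block. The scripts were tested on simulated data. Sequences and positions of transcripts came from GENCODE M21 (20244 transcripts found) and promoters from RefSeq GRCm38.p6. Coding lengths were worked back from the deposited counts, RPKM and library totals of RNA, as the median over libraries. Tables were summarised with Python 3.11.15, pandas 2.3.3 and scipy 1.17.1 and drawn with matplotlib 3.10.9.

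The members and lists, and the choice of the 4 RNA libraries of low complexity, were chosen with earlier results of these data known. Named genes were fixed core subunits and tissue isoforms, and, per complex, assay, comparison and direction, the called member with the smallest p, with the next where over 5 were called. Ndufa11, Ndufs3, Ndufs8, Ndufv2 and the other members named beyond these were chosen after their values were seen. Within an assay the labels give each sample as a different mouse, so p-values of footprints or of RNA measure the spread between mice. The main efficiency fit had no term for the mouse. It took footprints and RNA of 1 mouse as independent, so its p-values do not measure that spread. Footprints and RNA of 1 mouse share an extract, which pairs them. Their deviations from the group means correlated with r of -0.338 to 0.583 (median 0.0874), and own footprints were the best match in the group for 10 of 19 mice. Depth is given with the results; it was lowest in control footprints, which limits genes of low level most.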

Additional observations from a re-analysis of the deposited data

Results flagged for a closer look

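Among 120 groups of 4 to 5 mice, 9 had a mouse far from the others by Dixon's 95% limit, where chance gives about 1 in 20. The groups are not independent, since the sum over all members contains the sums of the complexes and the same mice recur. Ndufs1 footprints were 182.36 CPM in D5747 against 132.84 to 139.34 in the other DFMO mice, and 103.4 CPM in P5702 against 132.38 to 139.36 in the other diet mice. Cox7b footprints were 88.97 CPM in P5702 against 113.26 to 122.5 on the diet. In RNA of the diet group, P5828, a library of low complexity, had a summed CPM of 23715.18 in complex I against 6484.91 to 10370.08, of 5676.04 in complex III against 1964.84 to 2720.66, of 7920.57 in complex IV against 2648.55 to 3790.98, and of 54028.45 over all members against 19518 to 28792.04. In footprints of the same group, P5784 had 1544.98 in complex III against 1299.61 to 1360.77, and 17596.31 over all members against 15066.46 to 15672.28.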

How the results depend on the processing

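Counts are members called at an adjusted p under 0.05. Shares of all genes called are given with the results for some settings. For the others these counts describe the members only. Without the 4 RNA libraries of low complexity, the RNA counts were 7 under DFMO (48 in edgeR), 3 in the combination (36), 0 on the diet (7), 12 for combination against DFMO (1) and 25 against the diet (6), and the efficiency counts 13 (48), 1 (41), 1 (8), 1 (0) and 7 (0). Without the 3 RNA libraries far from their footprints, the RNA counts were 20, 22, 0, 0 and 1. These are D135, D5823 and PD5732, whose deviations correlated with their own footprints at r of -0.145, -0.191 and -0.338. With the best other mouse of the group r was 0.192, 0.402 and 0.433. DESeq2 gave RNA counts of 27 on the diet, 5 against DFMO and 21 against the diet, and efficiency counts of 23 on the diet and 3 against the diet. RLE scaling gave 13 on the diet and 14 against the diet in RNA, and 14 on the diet in efficiency. No filter gave 3 on the diet in RNA. In limma on RPKM, RNA had 0 against DFMO and 13 against the diet, and footprints 41 against the diet (21). Without footprints of D5747 and PD5732, footprint counts were 3 against DFMO, 42 against the diet, 1 on the diet and 1 for the interaction (0, 21, 0 and 0). With the mouse as a replicate block, efficiency had 0 on the diet, and the block ended 4 of the 25 named efficiency calls. Leaving out 1 mouse gave RNA counts of 31 to 55 under DFMO, 19 to 46 in the combination, 0 to 51 on the diet, 0 to 2 against DFMO and 2 to 15 against the diet, efficiency counts of 22 to 45 in the combination and 0 to 45 on the diet, and footprint counts of 0 to 1 against DFMO and 9 to 35 against the diet. Of 77 named results, Cycs in RNA under DFMO turned to 0.15 in limma on RPKM and Uqcrq in RNA of the combination to 0.31 without the low-complexity libraries; the cause was not tested. With those libraries left out, 1 control RNA library remained, whose spread was taken from the other groups.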
